A study of Rattus norvegicus with 12 samples.

Results

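The 32 genes described here mark the endothelial cells that line blood vessels, read in whole pancreatic islets of the rat. They were chosen by symbol: the rows of the deposited count table whose gene is 1 of 32 endothelial symbols were taken, and for each symbol the transcript with the highest mean count over the 12 libraries was used. All 32 symbols were found, under 35 transcripts, among 25888 symbols and 30309 transcripts in the table. Flt4, Eng and Cd93 each had 2 transcripts. The islets came from Sprague Dawley rats whose dams had either undergone ligation of both uterine arteries on embryonic day 18, a surgical model of intrauterine growth restriction (IUGR), or served as controls. Litters were reduced to 8 pups, which is listed for control and IUGR libraries alike. Islets were taken at 2 and at 10 weeks of age by collagenase perfusion of the duct and a Histopaque gradient, which gave 4 groups of 3 libraries that the design text calls biological replicates. The labels name neither the sex of the animals, nor how many contributed to a library, nor any operation on control dams. The model restricts growth in late gestation only, and the libraries hold every cell type that stayed with the islets, exocrine cells included.

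Islets are among the most densely vascularised tissues, and their capillaries are fenestrated, with pores closed by thin diaphragms that let hormones pass quickly into the blood. Islet cells secrete VEGF-A, which acts on the receptor Kdr (VEGFR2) of neighbouring endothelial cells and keeps these capillaries open and fenestrated. Flt1 (VEGFR1) binds the same ligand and acts largely as a decoy. The Tie receptors with their angiopoietin ligands steady the vessel wall, VE-cadherin holds the cells together, and the ETS factor Erg and the SOX factors Sox7, Sox17 and Sox18 maintain endothelial identity and the arterial and venous programmes.

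Libraries held between 30.4 and 64.2 M (mega) counts. The groups differed in how much of the total went to 31 acinar genes, which encode digestive enzymes of the exocrine pancreas and their regulators: 28.8% ± 11.6 (SD, n = 3) in control and 6.69% ± 2.52 in IUGR islets at 2 weeks, and 34.6% ± 18.0 and 1.40% ± 0.856 at 10 weeks. Levels are therefore given as CPM (counts per M counts of the library) scaled by TMM (trimmed mean of M-values) factors, which ran from 0.440 to 1.40. Endocrine genes were read in every library, with a summed level of 34192 to 201220 scaled CPM over 8 hormone and islet markers. Differences are log2 fold changes ± standard error from the edgeR quasi-likelihood test fitted to the whole table. A difference passed when the p-value, adjusted by Benjamini and Hochberg over 20733 transcripts tested, was under 0.05. All 32 endothelial genes passed the filter on low counts, and the lowest count of any of them in any library was 16, for Apln. In bulk RNA of this kind, fewer endothelial cells and less RNA per cell cannot be told apart. Levels of different genes are not set against each other, since no transcript lengths were used.

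Summed over the 32 genes, the endothelial level was highest in IUGR islets at 2 weeks and lowest in IUGR islets at 10 weeks. At 2 weeks the sums were 1048, 1677 and 1550 scaled CPM in the control libraries 1, 2 and 3, and 1861, 2230 and 1882 in the IUGR libraries. At 10 weeks they were 1079, 1877 and 1704 in controls and 810.1, 746 and 975 in IUGR islets. The IUGR libraries lay above all controls at 2 weeks and below all controls at 10 weeks, with the nearest control library at 1677 against 1861 and at 1079 against 975. The lowest control library at each age was also one with an acinar share above 40%, at 42.2% and 43.0%, while control library 3 at 10 weeks, at 46.9% acinar counts, had a sum of 1704. As a share of all counts without scaling, the 32 genes took 0.150% ± 0.0608 and 0.275% ± 0.0325 in control and IUGR islets at 2 weeks. At 10 weeks they took 0.110% ± 0.0802 and 0.0988% ± 0.0128, and these unscaled shares overlapped. Fits with the acinar level as a further term are given beside the counts of genes that follow. Acinar shares did not overlap between control and IUGR libraries, at 21.7% to 42.2% against 4.37% to 9.37% at 2 weeks. At 10 weeks they were 13.9% to 46.9% against 0.624% to 2.32%. Such fits therefore cannot separate the acinar level from growth restriction.

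**Figure D1:**
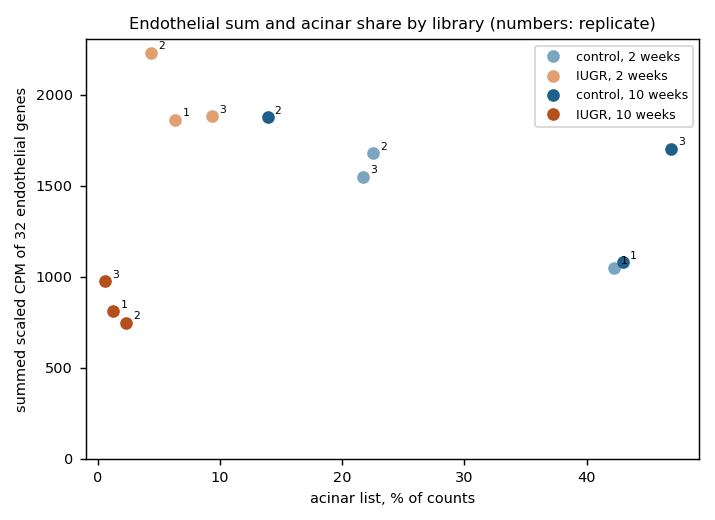
Summed scaled CPM of the 32 endothelial genes (vertical axis) against the percentage of counts in acinar genes (horizontal axis), 1 dot per library with its replicate number. The 3 IUGR libraries at 10 weeks lie between 746 and 975 at acinar shares of 0.624% to 2.32%, below all 9 other libraries.

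The first question was how the endothelial genes of islets differed after growth restriction at each age. At 10 weeks 27 of the 32 genes were lower in IUGR than in control islets and 0 were higher, where 15.5% of all transcripts tested were lower and 27.9% differed in either direction. All 32 log2 fold changes were negative, with a median of -0.92 beside -0.01 over all transcripts. The same 27 genes had every IUGR library below every control library, which held for 18.9% of all transcripts. The 5 genes that did not pass were Kdr, Flt1, Emcn, Dll4 and Apln. These calls rest on the scaling: on total counts without a scaling factor, a fit added after the data had been seen, 1 of the 32 genes (Sox7) passed. There 23 of the 32 log2 fold changes were negative, and of the 27 genes called lower 5 (Flt4, Icam2, Eng, Clec14a and Sox18) had values just above 0, up to 0.05. The median over the 32 genes was -0.18, that of all transcripts was 0.80, and 93.3% of the calls over all transcripts were higher, beside 44.5% with TMM factors. The endothelial median thus lay 0.98 below that of all transcripts without scaling. A scaling factor shifts all transcripts of a library alike, so this gap hardly depends on scaling and adds no separate support. With the acinar level as a covariate 18 genes were lower, with a median of -1.89. Calls over all transcripts were also fewer in that fit, as given in the last section, and 28.6% of them were higher. With 1 library left out, 14 genes passed without control library 3, IUGR library 1 or IUGR library 2 of the 10-week groups, and 16 without control library 2. The number rose to 29 without control library 1. In all 12 fits that left out 1 library 13 genes passed: Tek, Cdh5, Cldn5, Robo4, Plvap, Gpihbp1, Vwf, Egfl7, Sox7, Sox17, Notch4, Ephb4 and Aplnr. Of these, Cldn5, Gpihbp1, Egfl7 and Sox17 did not pass in every other scaled alternative.

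At 2 weeks 1 of the 32 genes, the peptide ligand Apln, was higher in IUGR islets and 0 were lower. Among all transcripts 1.66% were higher and 2.21% lower, 3.88% in all. Of the 32 log2 fold changes 31 were positive, with a median of 0.50 beside 0.05 over all transcripts. In 20 genes every IUGR library lay above every control library, which held for 21.8% of all transcripts. When the acinar level entered the fit as a covariate, the median was 0.03 and 0 genes passed. The difference between the IUGR effects at the 2 ages was tested as an interaction in the same fit. It passed for 27 of the 32 genes, each more negative at 10 weeks, where 10.4% of all transcripts passed in that direction and 3.97% in the other, and its median was -1.42. The 5 genes without a passing interaction were Kdr, Flt1, Flt4, Dll4 and Notch4. Without a scaling factor 0 genes passed in the interaction, and the median was -1.07 beside 0.38 over all transcripts. The comparisons at the 2 ages use different libraries, but the interaction and both age comparisons below share libraries with them.

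**Figure D2:**
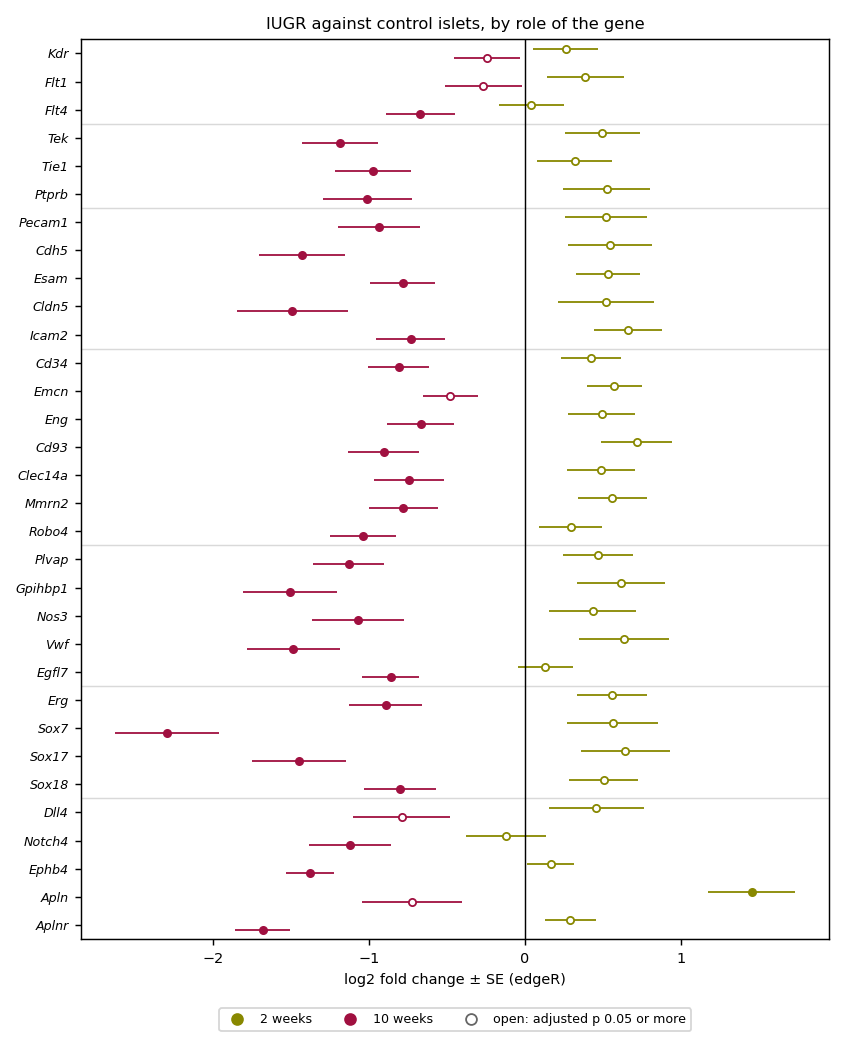
Log2 fold change of IUGR against control islets (horizontal axis, ± standard error) for each of the 32 endothelial genes, grouped by role, at 2 weeks (olive) and 10 weeks (crimson), with filled dots for an adjusted p under 0.05. With TMM scaling all 32 dots at 10 weeks lie below 0 (23 without scaling) and 31 of 32 at 2 weeks lie above it, with Notch4 the exception.

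Promoter windows of the endothelial genes were then described, whether or not a gene fell at 10 weeks. RefSeq windows of build GRCr8 were at hand for 18 of the 32 genes, and the 250 bases before the annotated start were searched on both strands for 6 short motifs. The ETS-class motif CAGGAAG was in 6 of the 18 windows (33.3%) and in 10.2% of 27457 windows of the same length over all genes. Those 6 genes were Emcn, Robo4, Plvap, Egfl7, Erg and Apln. The other ETS-class motif, CCGGAAG, was in 0 of 18 windows and in 7.74% of all. The SOX-class motifs AACAAT and ACAAAG were in 2 (11.1%) and 4 (22.2%) windows, beside 10.3% and 16.0% of all. TGGGAA, the core bound by the Notch effector RBPJ, was in 5 (27.8%) beside 21.6%, and the GATA-class motif AGATAA in 1 (5.56%) beside 10.0%. The 2 ETS-class motifs share a core but differ in their second base, so they cannot match at the same place. Of these motifs only CAGGAAG had a share above 1.5 times that of all windows, and with 18 windows this is a description without a test. 4 windows are printed, 5′ to 3′ on the gene's strand with the last base next to the annotated start and capitals marking matches. They are those of Kdr, which did not pass at either age, of Plvap and Erg, which fell at 10 weeks, and of Apln, which rose at 2 weeks. Kdr lies on the plus strand at chr14:32571813-32572062, Plvap on the minus strand at chr16:18231280-18231529, Erg on the minus strand at chr11:48251567-48251816 and Apln on the minus strand at chrX:132091247-132091496.
Kdr: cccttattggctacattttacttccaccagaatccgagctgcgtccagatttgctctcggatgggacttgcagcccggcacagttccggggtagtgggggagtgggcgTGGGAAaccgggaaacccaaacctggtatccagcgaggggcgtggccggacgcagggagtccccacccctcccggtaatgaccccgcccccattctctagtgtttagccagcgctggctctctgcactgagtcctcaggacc
Plvap: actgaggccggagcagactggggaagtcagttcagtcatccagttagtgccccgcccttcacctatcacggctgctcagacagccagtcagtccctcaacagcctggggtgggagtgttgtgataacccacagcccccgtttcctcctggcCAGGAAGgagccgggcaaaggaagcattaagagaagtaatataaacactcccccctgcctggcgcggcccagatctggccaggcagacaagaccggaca
Erg: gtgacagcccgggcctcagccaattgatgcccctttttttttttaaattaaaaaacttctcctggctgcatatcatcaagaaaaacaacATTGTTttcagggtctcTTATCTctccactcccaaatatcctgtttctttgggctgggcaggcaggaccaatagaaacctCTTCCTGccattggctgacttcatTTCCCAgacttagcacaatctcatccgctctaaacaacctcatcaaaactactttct
Apln: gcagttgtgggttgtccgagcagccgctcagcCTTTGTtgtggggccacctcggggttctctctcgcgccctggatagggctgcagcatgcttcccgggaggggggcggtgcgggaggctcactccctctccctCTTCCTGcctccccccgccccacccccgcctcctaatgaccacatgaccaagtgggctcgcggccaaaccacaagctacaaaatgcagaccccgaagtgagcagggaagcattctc
In the Kdr window the capitals are a TGGGAA match, and in the Plvap window a CAGGAAG match. The Erg window holds 4 matches, all on the opposite strand: the first SOX-class motif named above, the GATA-class motif, CAGGAAG and the RBPJ core. The Apln window holds the second SOX-class motif and CAGGAAG, also on the opposite strand. Of the 5 genes that did not pass at 10 weeks, Emcn and Apln had an ETS-class match in this window, Kdr and Flt1 had none, and Dll4 was not among the windows.

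The VEGF receptors had a median log2 fold change of -0.27 at 10 weeks, and 1 of the 3 fell. In what follows levels are scaled CPM in libraries 1, 2 and 3, with the controls first. Kdr, the main signalling receptor for VEGF-A, had 47.0, 68.3 and 57.7 in control and 60.6, 83.9 and 63.3 in IUGR islets at 2 weeks, then 61.0, 97.0 and 92.4 in control and 73.6, 57.2 and 80.9 in IUGR islets at 10 weeks. Its groups overlapped at both ages, and its log2 fold changes were 0.26 ± 0.21 (adjusted p = 0.422) at 2 weeks and -0.24 ± 0.21 (adjusted p = 0.412) at 10 weeks. Flt1, the decoy receptor, had 40.1, 67.0 and 72.8 in control and 73.4, 87.9 and 74.3 in IUGR islets at 2 weeks, then 89.5, 146 and 135 in control and 103, 79.6 and 126 in IUGR islets at 10 weeks. At 10 weeks its IUGR libraries reached into the range of the controls, with a log2 fold change of -0.27 ± 0.25 (adjusted p = 0.447). Flt4 (VEGFR3), which serves lymphatic and sprouting vessels, was the receptor that fell, with a log2 fold change of -0.67 ± 0.22 (adjusted p = 0.0424), which was 0.04 without a scaling factor. Its group means (± SD, n = 3) were 5.70 ± 1.35 in control and 3.59 ± 0.545 in IUGR islets at 10 weeks.

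Both Tie receptors and the phosphatase that restrains them fell at 10 weeks in IUGR islets. Tek (Tie2), the angiopoietin receptor, had 53.5, 90.5 and 83.8 in control and 102, 121 and 99.7 in IUGR islets at 2 weeks, then 52.8, 98.8 and 97.0 in control and 32.3, 36.8 and 40.1 in IUGR islets at 10 weeks. The 10-week IUGR libraries were all below the lowest control, with a log2 fold change of -1.19 ± 0.24 (adjusted p = 0.00693). Tie1, its co-receptor, had 48.5, 89.4 and 69.2 in control and 77.6, 98.8 and 82.3 in IUGR islets at 2 weeks, then 36.7, 66.5 and 55.9 in control and 25.0, 24.7 and 31.2 in IUGR islets at 10 weeks, and its log2 fold change at 10 weeks was -0.97 ± 0.24 (adjusted p = 0.0148). Ptprb (VE-PTP), the phosphatase of Tie2 and VE-cadherin, had 85.7, 152 and 141 in control and 163, 225 and 158 in IUGR islets at 2 weeks, then 108, 233 and 185 in control and 80.0, 82.3 and 99.6 in IUGR islets at 10 weeks. Its log2 fold change at 10 weeks was -1.01 ± 0.28 (adjusted p = 0.0237), and here control library 1 stood closest to the IUGR libraries. At 2 weeks none of the 3 passed, with adjusted p from 0.195 to 0.394.

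All 5 junction and adhesion genes fell at 10 weeks, although Icam2 was at 0.01 without a scaling factor, with a median log2 fold change of -0.93. Pecam1 (CD31), the adhesion molecule used most widely as a vessel marker, had 79.8, 153 and 141 in control and 168, 201 and 169 in IUGR islets at 2 weeks, then 78.4, 145 and 135 in control and 52.8, 68.3 and 66.2 in IUGR islets at 10 weeks. Its log2 fold change at 10 weeks was -0.93 ± 0.26 (adjusted p = 0.0241). Cdh5 (VE-cadherin), the core of the endothelial adherens junction, had 32.8, 58.0 and 45.0 in control and 56.2, 79.8 and 62.4 in IUGR islets at 2 weeks, then 24.9, 50.3 and 41.2 in control and 13.2, 12.3 and 17.7 in IUGR islets at 10 weeks. No 10-week IUGR library reached 20 scaled CPM and no control fell below it, and the log2 fold change was -1.43 ± 0.28 (adjusted p = 0.00539). Esam, a tight-junction adhesion molecule, had 26.1, 42.4 and 41.1 in control and 50.9, 57.5 and 50.5 in IUGR islets at 2 weeks, then 21.8, 34.6 and 31.7 in control and 15.2, 15.8 and 20.2 in IUGR islets at 10 weeks, with a log2 fold change of -0.78 ± 0.21 (adjusted p = 0.0195). Cldn5 (claudin-5), which seals tight junctions, had 10.02, 22.4 and 16.4 in control and 21.4, 24.6 and 24.1 in IUGR islets at 2 weeks, then 2.47, 5.29 and 4.27 in control and 0.974, 1.94 and 1.36 in IUGR islets at 10 weeks. It combined a fall with age in both conditions with a further difference between them at 10 weeks, -1.49 ± 0.36 (adjusted p = 0.0126). Icam2, an adhesion molecule present on resting endothelium, had 10.6, 18.1 and 17.8 in control and 23.5, 27.2 and 22.8 in IUGR islets at 2 weeks, then 9.98, 16.4 and 15.2 in control and 7.54, 8.29 and 9.24 in IUGR islets at 10 weeks, with a log2 fold change of -0.73 ± 0.22 (adjusted p = 0.032) at 10 weeks.

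Of the 7 surface glycoproteins and guidance receptors 6 fell at 10 weeks, with Emcn the exception, and of these Eng and Clec14a were at 0.05 and 0.01 without a scaling factor. Cd34, a sialomucin of capillaries and blood progenitors, had 42.4, 60.8 and 55.1 in control and 69.96, 73.8 and 68.9 in IUGR islets at 2 weeks, then 24.5, 38.6 and 44.8 in control and 18.3, 21.1 and 22.1 in IUGR islets at 10 weeks, and its log2 fold change at 10 weeks was -0.81 ± 0.20 (adjusted p = 0.0135). Emcn (endomucin), a sialomucin of capillaries and veins, had 29.2, 40.05 and 40.5 in control and 49.4, 56.4 and 57.7 in IUGR islets at 2 weeks, then 30.5, 45.9 and 45.3 in control and 27.4, 26.4 and 33.6 in IUGR islets at 10 weeks. IUGR library 3 lay above control library 1, so its groups overlapped, and the log2 fold change was -0.48 ± 0.18 (adjusted p = 0.0637). Eng (endoglin), a co-receptor for BMP9 and TGF-beta, had 37.5, 61.5 and 54.8 in control and 70.1, 80.1 and 66.5 in IUGR islets at 2 weeks, then 46.8, 75.6 and 61.4 in control and 40.4, 30.6 and 44.9 in IUGR islets at 10 weeks, with a log2 fold change of -0.67 ± 0.22 (adjusted p = 0.0404). The 6 that fell covered a narrow range of sizes, from -0.67 for Eng to -1.04 for Robo4. Cd93, a C-type lectin-like receptor, had 88.7, 138 and 136 in control and 182, 234 and 183 in IUGR islets at 2 weeks, then 65.0, 112 and 117 in control and 54.0, 47.3 and 55.6 in IUGR islets at 10 weeks, and its log2 fold change at 10 weeks was -0.91 ± 0.23 (adjusted p = 0.0159). Clec14a, which belongs to the same lectin family, had 22.3, 35.1 and 30.9 in control and 37.4, 45.1 and 41.3 in IUGR islets at 2 weeks, then 20.7, 37.3 and 38.8 in control and 18.6, 18.7 and 20.5 in IUGR islets at 10 weeks, and it differed by -0.74 ± 0.22 (adjusted p = 0.0302). Both bind Mmrn2 (multimerin-2), a matrix protein laid down by endothelial cells. Mmrn2 itself had 41.8, 69.7 and 71.5 in control and 101, 89.2 and 80.6 in IUGR islets at 2 weeks, then 48.2, 76.7 and 73.0 in control and 33.7, 37.1 and 44.5 in IUGR islets at 10 weeks, and its log2 fold change was -0.78 ± 0.22 (adjusted p = 0.0253). Robo4, a roundabout-family receptor that limits vessel leak, had 11.4, 19.8 and 17.2 in control and 19.3, 20.6 and 19.6 in IUGR islets at 2 weeks, then 9.82, 14.98 and 13.8 in control and 5.15, 6.55 and 7.07 in IUGR islets at 10 weeks, with a log2 fold change of -1.04 ± 0.21 (adjusted p = 0.00634) at 10 weeks. Its 10-week groups were separated by a gap from 7.07 to 9.82 scaled CPM.

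The genes for fenestrae, lipase anchoring, nitric oxide and secreted factors all fell at 10 weeks. Plvap (PV-1), the protein of which the diaphragms of fenestrae are built, had 115, 146 and 161 in control and 183, 208 and 194 in IUGR islets at 2 weeks, then 169, 295 and 264 in control and 113, 83.0 and 136 in IUGR islets at 10 weeks. Its IUGR libraries were below all controls at 10 weeks and above all controls at 2 weeks, with log2 fold changes of -1.13 ± 0.23 (adjusted p = 0.00592) and 0.47 ± 0.22 (adjusted p = 0.189). Gpihbp1, which carries lipoprotein lipase across capillary endothelium, had 12.5, 18.0 and 21.3 in control and 20.9, 30.6 and 28.3 in IUGR islets at 2 weeks, then 7.67, 12.9 and 17.7 in control and 4.48, 3.66 and 5.31 in IUGR islets at 10 weeks. This was among the largest falls of the 32 genes, -1.51 ± 0.30 (adjusted p = 0.00597). Nos3 (eNOS), the endothelial nitric oxide synthase, had 9.22, 19.3 and 16.4 in control and 18.1, 24.7 and 18.1 in IUGR islets at 2 weeks, then 6.97, 13.7 and 10.3 in control and 4.26, 4.73 and 5.76 in IUGR islets at 10 weeks, with a log2 fold change of -1.07 ± 0.30 (adjusted p = 0.0224) at 10 weeks. Vwf (von Willebrand factor), the clotting glycoprotein stored in endothelial granules, had 29.5, 68.2 and 58.9 in control and 80.2, 90.0 and 73.8 in IUGR islets at 2 weeks, then 66.7, 101 and 62.5 in control and 24.1, 22.6 and 35.4 in IUGR islets at 10 weeks. Its IUGR libraries lay above all controls at 2 weeks and below all controls at 10 weeks, with a 10-week log2 fold change of -1.49 ± 0.30 (adjusted p = 0.00606). Platelets carry Vwf and Pecam1 as well, and platelet genes also fell at 10 weeks, as given below. Egfl7, a secreted matrix-bound factor of angiogenesis, had 47.5, 63.3 and 52.4 in control and 56.5, 62.7 and 59.7 in IUGR islets at 2 weeks, then 21.8, 31.9 and 37.3 in control and 15.8, 14.97 and 19.3 in IUGR islets at 10 weeks, with a log2 fold change of -0.86 ± 0.18 (adjusted p = 0.00756) at 10 weeks.

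All 4 transcription factors fell at 10 weeks, although Sox18 was at 0.03 without a scaling factor. Erg, an ETS factor that drives many endothelial genes, had 6.81, 11.3 and 9.73 in control and 12.6, 15.4 and 13.2 in IUGR islets at 2 weeks, then 6.08, 11.0 and 10.3 in control and 4.73, 4.46 and 5.51 in IUGR islets at 10 weeks, and its log2 fold change at 10 weeks was -0.89 ± 0.23 (adjusted p = 0.0178). The SOX factors with a common place in vessel development differed in size. Sox7 had 3.92, 7.53 and 6.53 in control and 8.50, 9.96 and 8.20 in IUGR islets at 2 weeks, then 2.69, 5.71 and 5.88 in control and 0.974, 0.772 and 1.16 in IUGR islets at 10 weeks. Its 10-week fall, -2.29 ± 0.33 (adjusted p = 0.00173), was the largest among the 32 genes, a 4.90-fold lower fitted level. Sox17, which is tied to arterial identity, had 11.2, 19.2 and 18.9 in control and 21.9, 29.4 and 25.8 in IUGR islets at 2 weeks, then 7.45, 16.0 and 17.5 in control and 4.84, 5.65 and 4.47 in IUGR islets at 10 weeks, with a log2 fold change of -1.45 ± 0.30 (adjusted p = 0.00721). Sox18, which acts in lymphatic and blood vessels, had 6.55, 10.5 and 7.92 in control and 11.2, 12.4 and 11.9 in IUGR islets at 2 weeks, then 4.09, 5.48 and 7.30 in control and 2.81, 2.86 and 3.98 in IUGR islets at 10 weeks, with a log2 fold change of -0.80 ± 0.23 (adjusted p = 0.0273).

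Among the genes of Notch, ephrin and apelin signalling, 3 of 5 fell at 10 weeks. Dll4, the Notch ligand of tip and arterial cells, had group means of 10.8 ± 3.52 in control and 6.24 ± 1.92 scaled CPM in IUGR islets at 10 weeks. Its groups overlapped and its log2 fold change was -0.79 ± 0.31 (adjusted p = 0.0798). Notch4, the endothelial Notch receptor, had means of 16.8 ± 6.63 and 7.75 ± 1.26 at 10 weeks, with a log2 fold change of -1.12 ± 0.26 (adjusted p = 0.0116). At 2 weeks Notch4 was the 1 gene of the 32 with a negative log2 fold change, -0.12 ± 0.26 (adjusted p = 0.783). Ephb4, the ephrin receptor of veins, had 41.6, 49.6 and 36.9 in control and 44.0, 50.4 and 49.4 in IUGR islets at 2 weeks, then 18.4, 26.0 and 26.9 in control and 9.91, 8.39 and 9.14 in IUGR islets at 10 weeks. It did not differ beyond its spread at 2 weeks (0.17 ± 0.15 (adjusted p = 0.483)), and at 10 weeks it fell, with a log2 fold change of -1.38 ± 0.16 (adjusted p = 0.000767). Apln (apelin), a peptide made by sprouting endothelial cells, had 3.29, 2.72 and 3.22 in control and 7.24, 7.71 and 10.4 in IUGR islets at 2 weeks, then 1.05, 1.46 and 1.497 in control and 0.891, 0.399 and 1.14 in IUGR islets at 10 weeks. All 3 IUGR libraries at 2 weeks lay well above the 3 controls, which were close to each other. Its log2 fold change at 2 weeks was 1.46 ± 0.28 (adjusted p = 0.0389) and at 10 weeks -0.72 ± 0.32 (adjusted p = 0.113). The 2-week call is fragile: it was lost in 6 of the 12 fits that left out 1 library (any IUGR library of 2 weeks, control library 1 or 2 of 2 weeks, or IUGR library 1 of 10 weeks), with adjusted p from 0.0202 to 0.149 over the 12. It was also lost with the acinar covariate (adjusted p = 0.313) and when only the 6 libraries of that age were fitted (adjusted p = 0.0528). Aplnr, the receptor of apelin, had 30.8, 40.3 and 36.5 in control and 44.3, 47.2 and 40.4 in IUGR islets at 2 weeks, then 13.8, 19.5 and 22.0 in control and 6.71, 5.21 and 5.34 in IUGR islets at 10 weeks. It moved little at 2 weeks (0.29 ± 0.16 (adjusted p = 0.262)) and fell at 10 weeks, with -1.68 ± 0.18 (adjusted p = 0.000541), the smallest adjusted p of the 32 genes in that comparison.

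**Figure D3:**
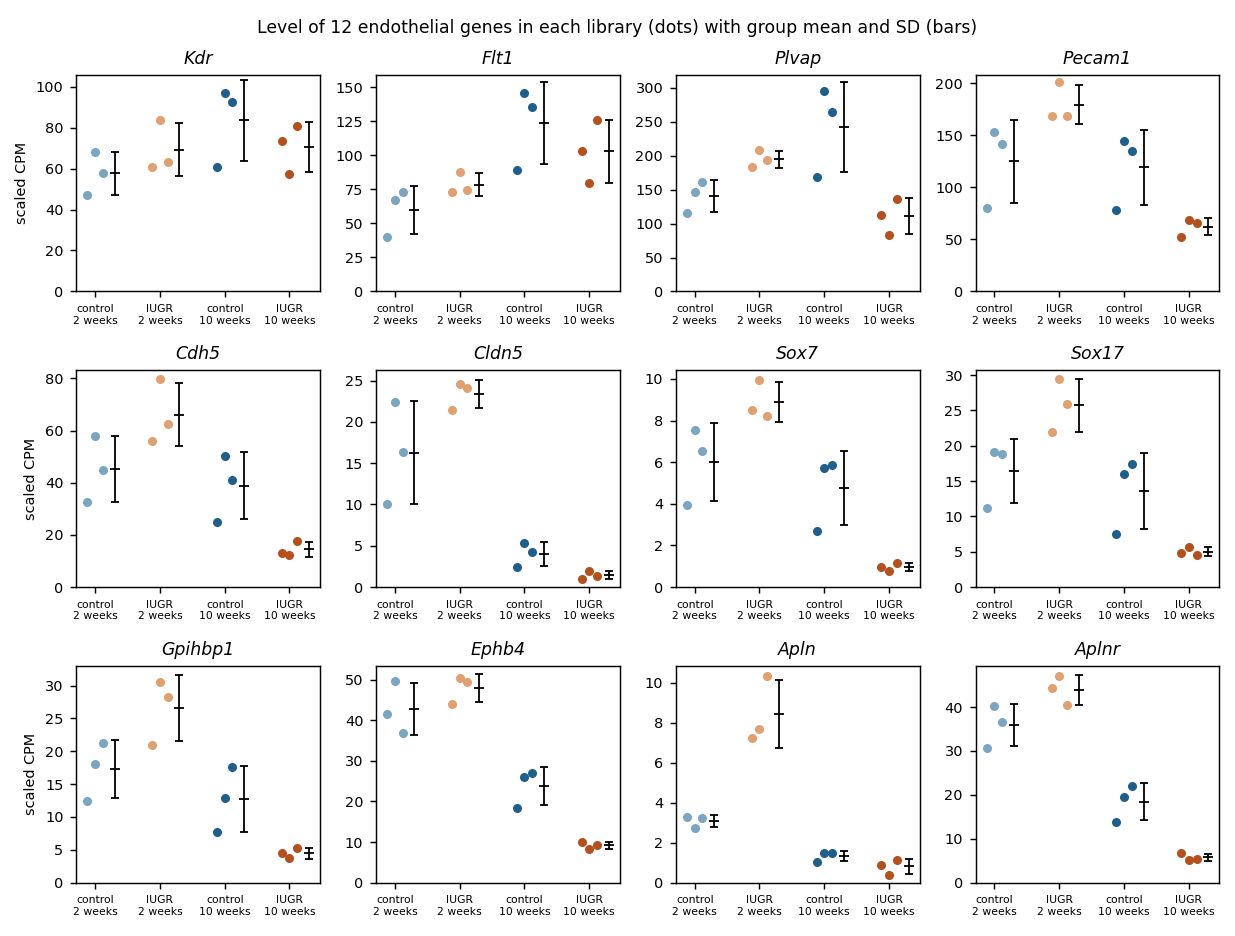
Scaled CPM of 12 endothelial genes (vertical axis, from 0) in each library (dots) of the 4 groups, with the group mean and SD as bars. In 9 of the 12 genes the 3 IUGR libraries at 10 weeks lie below every control library of that age, the exceptions being Kdr, Flt1 and Apln.

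A second question was which of these genes fell most and which held, apart from the common level. For each library the log2 CPM of a gene was set against the median of the other 31 genes, a measure on which the scaling of the library cancels. The values are given as a description, and no test was made of them. At 10 weeks 5 genes had every IUGR library lower on this measure than every control, and 7 had every IUGR library higher. Of all transcripts, set against the median of all the endothelial genes, 3.82% were lower and 58.7% higher. These shares cannot be compared with the endothelial counts. The endothelial median itself was lower in IUGR islets, which moves other transcripts up, while the endothelial genes are centred on it. Sox7 stood lowest, at -1.34 on the log2 scale against controls, followed by Aplnr at -0.77, Cdh5 at -0.64, Gpihbp1 at -0.55 and Ephb4 at -0.47. Cldn5, Vwf and Sox17 had similar differences, -0.59, -0.53 and -0.47, but their groups overlapped. At the other end were Kdr at 0.72, Flt1 at 0.69 and Emcn at 0.49, with Eng, Esam, Icam2 and Mmrn2 between 0.19 and 0.30. The junction genes thus spread from Cdh5 over Pecam1 (0.06, overlapping) to Esam (0.26), and the SOX factors from Sox7 to Sox18 (0.11, overlapping). With the summed level of Pecam1, Cdh5, Esam and Tie1 as the reference instead, Sox7, Aplnr, Cdh5 and Gpihbp1 were still lower in every IUGR library. Kdr, Flt1, Emcn, Icam2 and Mmrn2 were still higher.

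**Figure D4:**
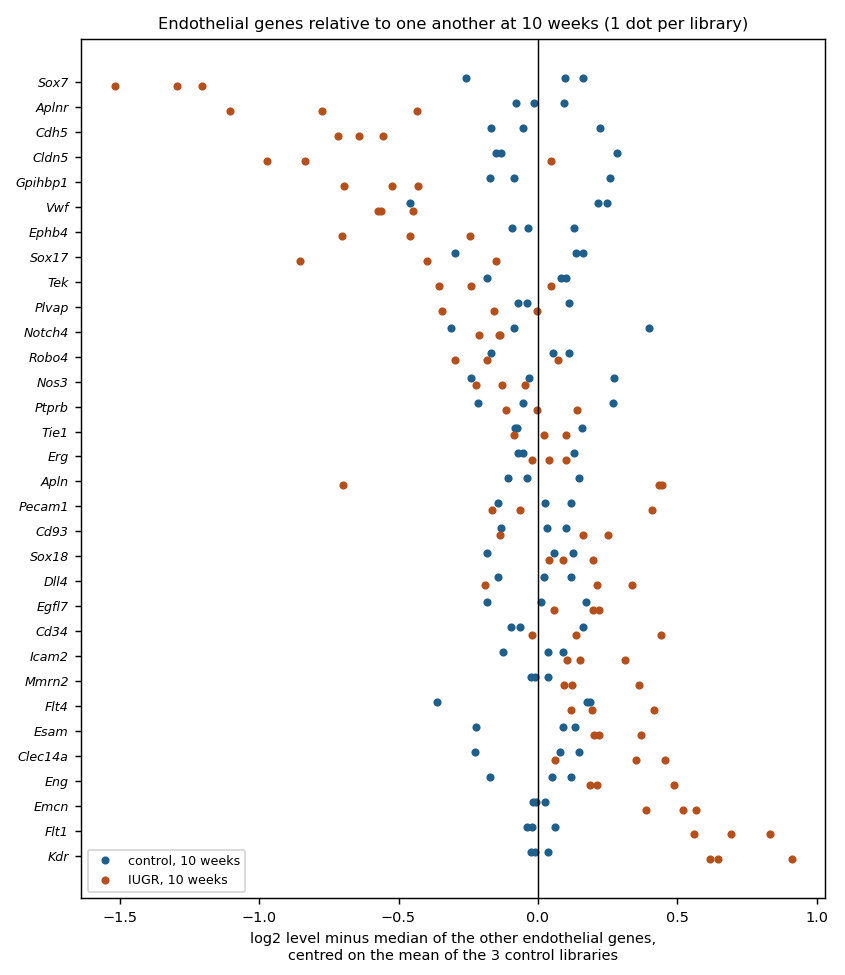
Level of each of the 32 endothelial genes relative to the median of the others at 10 weeks, in log2 units centred on the mean of the control libraries (horizontal axis), 1 dot per library, controls in blue and IUGR in orange, ordered by the difference. Sox7 is lowest in IUGR islets at -1.34 and Kdr highest at 0.72, and 20 of 32 genes have groups that overlap.

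On the same relative measure at 2 weeks 4 genes were higher in every IUGR library and 4 were lower. Of all transcripts, set against the endothelial median, 2.91% were higher and 48.8% lower. Here too the shares cannot be compared with the counts, since the endothelial median itself was higher in IUGR islets. Apln stood apart at 0.95, and the next highest was Cd93 at 0.29. Notch4 was lowest at -0.60, then Flt4 at -0.44, Egfl7 at -0.31 and Aplnr at -0.20 among those without overlap. Apelin and its receptor thus had differences of opposite sign relative to the other genes at 2 weeks, and at 10 weeks Apln was at 0.06 with overlapping groups and Aplnr at -0.77. With the summed level of Pecam1, Cdh5, Esam and Tie1 as the reference, Apln was still higher in every IUGR library at 2 weeks. Aplnr was then no longer lower without overlap at 2 weeks, while Notch4, Flt4 and Egfl7 were.

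Age was the other comparison of the design. In control islets 7 of the 32 genes differed between 10 and 2 weeks, beside 32.3% of all transcripts. The counts in this comparison were thus near or below the shares of all transcripts. Cldn5, Egfl7, Ephb4, Apln and Aplnr were lower at 10 weeks, where 15.1% of all transcripts were lower, and Flt1 and Plvap were higher, where 17.2% were. The same 5 and 2 genes had groups that did not overlap, beside 20.5% and 20.6% of all transcripts. The fall of Cldn5 was the largest, -2.02 ± 0.33 (adjusted p = 0.00139), from a mean of 16.3 ± 6.22 to 4.01 ± 1.43 scaled CPM. The log2 fold changes of the others that fell were -1.20 ± 0.30 (adjusted p = 0.0114) for Apln, -0.96 ± 0.17 (adjusted p = 0.00197) for Aplnr, -0.84 ± 0.15 (adjusted p = 0.00222) for Ephb4 and -0.84 ± 0.18 (adjusted p = 0.00548) for Egfl7. Flt1 rose by 1.04 ± 0.25 (adjusted p = 0.00943), from 60.0 ± 17.4 to 124 ± 30.05, and Plvap by 0.79 ± 0.22 (adjusted p = 0.0211), from 141 ± 23.4 to 242 ± 65.8. Plvap did not pass without control library 1 or 2 of 2 weeks or control library 2 or 3 of 10 weeks. Without a scaling factor neither Flt1 nor Plvap passed, and 7 genes were lower, where 7.02% of the calls over all transcripts were higher. With the acinar covariate 11 genes passed, 5 lower and 6 higher, where 50.7% of the calls over all transcripts were higher. Apln did not pass without the 10-week control libraries above 40% acinar counts, with a log2 fold change of -1.07 (adjusted p = 0.119).

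In IUGR islets 29 of the 32 genes were lower at 10 than at 2 weeks, where 29.2% of all transcripts were lower, and the median log2 fold change was -1.60. All 29 had every 10-week library below every 2-week library, which held for 35.5% of all transcripts, with 33.9% the other way round. Kdr, Flt1 and Dll4 did not pass, with log2 fold changes of 0.03 ± 0.21 (adjusted p = 0.925), 0.39 ± 0.25 (adjusted p = 0.199) and -0.62 ± 0.31 (adjusted p = 0.107). The largest falls were those of Cldn5 at -4.03 ± 0.37 (adjusted p = 1.03e-05), Apln at -3.38 ± 0.31 (adjusted p = 1.16e-05), Sox7 at -3.19 ± 0.33 (adjusted p = 2.34e-05) and Aplnr at -2.93 ± 0.18 (adjusted p = 1.94e-06). Cldn5 went from a mean of 23.4 ± 1.70 to 1.43 ± 0.488 scaled CPM, and Apln from 8.44 ± 1.69 to 0.809 ± 0.376. Plvap, which rose with age in controls, fell here, with -0.82 ± 0.22 (adjusted p = 0.0093). Notch4, at -0.75 ± 0.26 (adjusted p = 0.0303), passed in 7 of the 12 fits with 1 library left out.

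Relative to the other genes, the order with age was alike at its ends in both conditions, although the 2 comparisons are separate sets of libraries. Cldn5 was the lowest at 10 weeks in control islets (-1.73) and in IUGR islets (-2.42), and Flt1 the highest (1.41 and 2.12). In control islets 13 genes were higher relative to the others in every 10-week library and 6 lower. In IUGR islets 13 were higher and 10 lower. Of all transcripts, set against the endothelial median, 23.3% were higher and 7.99% lower in controls, and 79.0% and 6.46% in IUGR islets. Any move of the endothelial median with age shifts these shares, so they cannot be compared with the counts. Cldn5, Apln, Aplnr and Ephb4 were lower without overlap in both conditions. Without overlap in both 12 genes were higher, namely Clec14a, Dll4, Emcn, Eng, Erg, Flt1, Kdr, Mmrn2, Notch4, Plvap, Ptprb and Vwf, with Kdr at 0.87 and 1.78. With the summed level of Pecam1, Cdh5, Esam and Tie1 as the reference, some of these no longer separated. They were Emcn and Notch4 in controls and Vwf in IUGR islets. Cldn5, Apln, Aplnr and Ephb4 were still lower without overlap in both. Sox7 was at -0.08 with overlapping groups in controls and at -1.55 without overlap in IUGR islets.

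**Figure D5:**
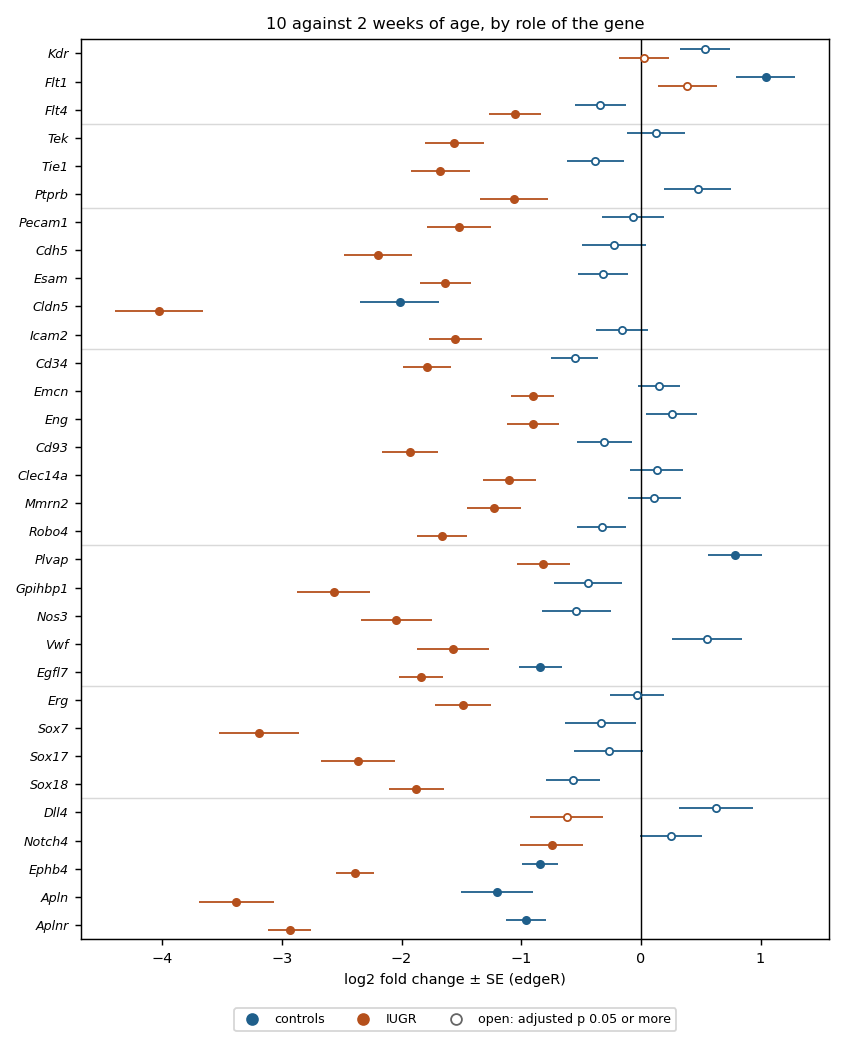
Log2 fold change of 10 against 2 weeks (horizontal axis, ± standard error) for each of the 32 endothelial genes, grouped by role, in control and in IUGR islets, with filled dots for an adjusted p under 0.05. In IUGR islets 29 genes are lower, down to -4.03 for Cldn5, while in controls 5 are lower and 2 higher.

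Genes that act with these receptors were read from 5 further lists, and their counts at 10 weeks stand beside 15.5% of all transcripts lower and 12.4% higher. Without a scaling factor the genes passing went from 4 to 1 among VEGF and angiopoietin partners, from 6 to 2 among Notch and ephrin partners, from 8 to 0 among other transcription factors, from 14 to 3 among other vessel receptors and from 3 to 1 among leukocyte adhesion molecules. Of 10 VEGF and angiopoietin partners 3 fell and 1 rose at 10 weeks in IUGR islets, with a median log2 fold change of -0.49. Those that fell were Angpt2, the Tie2 antagonist of remodelling vessels (-1.26 ± 0.26, adjusted p = 0.00721), Angpt1, the Tie2 agonist (-1.03 ± 0.31, adjusted p = 0.0298), and Nrp1, a co-receptor of Kdr (-0.63 ± 0.20, adjusted p = 0.0351), which was at 0.12 without a scaling factor. Vegfa, the ligand of Kdr and Flt1, rose by 0.55 ± 0.12 (adjusted p = 0.00958). It also rose with age, by 0.45 ± 0.12 (adjusted p = 0.0187) in control islets, where the value without a scaling factor was -0.20, and by 1.19 ± 0.13 (adjusted p = 2.34e-05) in IUGR islets. Its interaction was 0.75 ± 0.18 (adjusted p = 0.0182), but without a scaling factor 0 of the 10 partners passed in the interaction. Of 12 Notch and ephrin partners 6 fell at 10 weeks, with a median of -0.80. They included Jag1, a Notch ligand (-1.12 ± 0.16, adjusted p = 0.00166), Hes1, a Notch target (-1.10 ± 0.20, adjusted p = 0.0043), Efna1, an ephrin ligand (-1.08 ± 0.21, adjusted p = 0.00545), and the receptor Notch1 (-1.18 ± 0.29, adjusted p = 0.0146). Other cells make these as well, and 2 more of the 6, Efnb2 and Rbpj, were at 0.09 and 0.52 without a scaling factor.

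Of 14 other endothelial transcription factors 8 fell at 10 weeks (Elk3 was at 0.09 without a scaling factor), with a median of -1.05, and of -0.36 without a scaling factor. The 4 with the smallest p were Meox2 (-1.75 ± 0.26, adjusted p = 0.0019), the venous factor Nr2f2 (COUP-TFII, -1.68 ± 0.28, adjusted p = 0.00295), Tal1 (-1.51 ± 0.32, adjusted p = 0.00721) and Gata2 (-1.14 ± 0.28, adjusted p = 0.0137). Of 24 other vessel receptors and surface proteins 14 fell, with a median of -1.01, and of -0.29 without a scaling factor. Among these were the anticoagulant receptor Thbd (thrombomodulin, -2.18 ± 0.32, adjusted p = 0.00174), the ATP-cleaving enzyme Entpd1 (CD39, -1.46 ± 0.22, adjusted p = 0.00197), and the regulators of small GTPases in vessel tubes Rasip1 (-1.25 ± 0.19, adjusted p = 0.00204) and Rhoj (-1.36 ± 0.24, adjusted p = 0.00348). Of the 4 leukocyte adhesion molecules of activated vessels 3 fell, Selp (P-selectin, -3.28 ± 0.64, adjusted p = 0.00541), Icam1 (-1.99 ± 0.50, adjusted p = 0.0147) and Vcam1 (-1.38 ± 0.45, adjusted p = 0.0432). No gene of the 5 lists other than Vegfa was higher at 10 weeks. At 2 weeks Dll1, a Notch ligand (0.61 ± 0.14, adjusted p = 0.0474), and Ramp2, the adrenomedullin co-receptor (0.72 ± 0.18, adjusted p = 0.0495), were higher in IUGR islets, and 0 genes of the 5 lists were lower. Over all transcripts 1.66% were higher and 2.21% lower at that age. Without a scaling factor 0 genes of the lists of Dll1 and Ramp2 passed at 2 weeks. No transcript passed at 2 weeks with the acinar covariate or with only the libraries of that age.

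Markers of other cells moved in the same comparisons, and their part in the endothelial values was not tested. The acinar covariate is no such test, since acinar shares did not overlap between conditions at either age. The counts at 10 weeks again stand beside 15.5% of all transcripts lower and 12.4% higher, and the single genes called in the lymphatic and ductal lists are near that share. Without a scaling factor the genes passing went from 9 to 1 in the immediate-early list, from 3 to 0 in the red cell and macrophage lists, and from 3 to 1 in the platelet and pericyte lists. They went from 7 to 5 in the fibroblast list, from 3 to 7 in the endocrine list and from 1 to 3 in the ductal list, and stayed at 30 in the acinar list and 1 in the lymphatic list. At 10 weeks 30 of 31 acinar genes were lower in IUGR islets, and 3 of 8 endocrine genes were higher and 0 lower, with summed endocrine levels of 100239.8 to 146592 scaled CPM in control and 190618 to 201220.0 in IUGR islets. Of the genes of vessel-associated cells, 3 of 9 pericyte and smooth muscle genes (Notch3, Des and Myh11) were lower, with sums of 772 to 949.5 and 352 to 716. Of 8 fibroblast genes 7 were lower, with sums of 763 to 1630.3 in control and 293 to 368 in IUGR islets. Of 6 lymphatic genes 1 was lower (Mmrn1), and the sums of 37.2 to 147 and 65.8 to 99.5 overlapped. Blood cell genes were lower too, with 3 of 3 red cell genes (Alas2 at 0.09 without a scaling factor) at sums of 182 to 316 against 54.8 to 133. Of the 4 platelet genes tested 3 were lower, at sums of 14.86 to 20.8 against 7.82 to 14.92, which overlapped, and the platelet gene Ppbp was at 0 counts in some libraries. Of 9 macrophage genes 3 were lower, with overlapping sums of 65.1 to 171 and 50.5 to 79.8. Immediate-early genes, which respond to handling of tissue, were lower in 9 of 10 cases, at sums of 844 to 2034 against 559.7 to 650.1. Of 7 ductal genes 1 (Muc1) was lower, with overlapping sums of 140.0 to 169 and 110.0 to 174.

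At 2 weeks, when endothelial levels in IUGR islets were higher by a median of 0.50, the medians of the pericyte, fibroblast, macrophage and immediate-early lists were 0.63, 0.68, 0.69 and 0.83. Of these lists 1 gene, the fibroblast marker Thy1, passed, beside 1.66% of all transcripts higher, and 0 passed without a scaling factor. Sums of the pericyte list were 830.4 to 1173 in control and 1484 to 2213 in IUGR islets, and those of the fibroblast list 4379.9 to 7725 and 9048 to 10625, without overlap in either. The macrophage sums were 41.2 to 82.3 and 80.6 to 120.4, and those of immediate-early genes 644 to 1362 and 1530.2 to 2079.7. At 10 weeks the medians of the pericyte, fibroblast, macrophage and immediate-early lists were -0.67, -2.01, -0.90 and -1.64, beside -0.92 for the endothelial genes. Without a scaling factor that of the pericyte list was 0.13.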

How the data were processed

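Counts per Ensembl transcript were used as deposited by the authors, raw and not normalized. Libraries were stranded and depleted of ribosomal RNA, per the labels' protocols. TopHat2 2.0.9, bedtools and builds rn5 and mm9 are listed in the submitters' processing notes. How reads were counted, and whether by strand, is not given in the sources used here, so reads of overlapping or antisense genes cannot be told apart.

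Transcripts were filtered with filterByExpr (minimum count 10) and scaled by TMM factors in edgeR 4.0.16 (R 4.3.3). The 4 groups of 3 libraries were fitted together with robust quasi-likelihood dispersions, and p-values adjusted by Benjamini and Hochberg over 20733 transcripts. Standard errors were derived from each log2 fold change and its F statistic. The steps were tested on simulated data. Alternatives were DESeq2 1.42.0, RLE factors, TMM without the acinar list and the 20 most abundant transcripts, no filter, a replicate block, an acinar covariate, a threshold of 0.1, only the libraries of a comparison, summed transcripts and each library left out. Added after seeing the data were unscaled totals, 1 transcript per symbol and leaving out control libraries above 40% acinar counts.

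The genes, lists and rules were chosen with earlier results of these data known. Values in every library are given for the gene of each role with the highest mean count, the 4 lowest and 4 highest log2 fold changes at 10 weeks, and every gene passing at 2 weeks or in the interaction. Of each further list, up to 4 genes passing at 10 weeks and 3 at 2 weeks are named.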

Additional observations from a re-analysis of the deposited data

Results flagged for a closer look

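For 27 of the 32 endothelial genes the IUGR effect at 10 weeks differed from that at 2 weeks in the interaction test of the edgeR quasi-likelihood fit, and each log2 difference (10-week effect minus 2-week effect, ± standard error) was negative. The largest was that of the transcription factor Sox7 (-2.86 ± 0.44, adjusted p = 0.00385). The other transcription factors followed with Sox17 (-2.09 ± 0.42, adjusted p = 0.00925), Erg (-1.45 ± 0.32, adjusted p = 0.0146) and Sox18 (-1.31 ± 0.32, adjusted p = 0.0219).

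Apelin and its receptor were both among the largest differences, Apln at -2.18 ± 0.42, adjusted p = 0.00859 and Aplnr at -1.97 ± 0.24, adjusted p = 0.00185, and the ephrin receptor Ephb4 was at -1.54 ± 0.21, adjusted p = 0.0026. Apln reached this from a passing rise at 2 weeks, Aplnr and Ephb4 from a passing fall at 10 weeks.

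Of the genes for lipase anchoring, clotting and fenestrae, Gpihbp1 differed by -2.13 ± 0.41, adjusted p = 0.00848, Vwf by -2.12 ± 0.42, adjusted p = 0.00871, and Plvap by -1.60 ± 0.32, adjusted p = 0.00906. Nos3 differed by -1.51 ± 0.41, adjusted p = 0.0328 and Egfl7 by -0.99 ± 0.25, adjusted p = 0.0257. Junction genes were at -2.01 ± 0.47, adjusted p = 0.0183 for Cldn5, -1.97 ± 0.39, adjusted p = 0.00867 for Cdh5, -1.45 ± 0.37, adjusted p = 0.0254 for Pecam1, -1.39 ± 0.31, adjusted p = 0.0145 for Icam2 and -1.32 ± 0.29, adjusted p = 0.0145 for Esam.

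The Tie receptors and their phosphatase differed by -1.68 ± 0.34, adjusted p = 0.0103 for Tek, -1.54 ± 0.40, adjusted p = 0.0273 for Ptprb and -1.30 ± 0.34, adjusted p = 0.0289 for Tie1. Among the surface glycoproteins Cd93 was at -1.62 ± 0.32, adjusted p = 0.00936, Mmrn2 at -1.34 ± 0.31, adjusted p = 0.0178, Robo4 at -1.33 ± 0.29, adjusted p = 0.0136, Cd34 at -1.23 ± 0.28, adjusted p = 0.0149, Clec14a at -1.23 ± 0.31, adjusted p = 0.025, Eng at -1.16 ± 0.30, adjusted p = 0.0284 and Emcn at -1.05 ± 0.25, adjusted p = 0.0186. Emcn passed here although it passed at neither age alone. Over all transcripts 10.4% passed in this direction. In all 12 fits that left out 1 library 18 of the 27 genes passed. Counting those fits among the scaled alternatives, calls were lost most often for Egfl7 (8), Nos3 and Tie1 (7 each) and Eng (6). Without a scaling factor 0 of the 32 genes passed.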

How the results depend on the processing

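At 10 weeks, in the interaction and with age in IUGR islets, the number of genes passing stayed within 1.5 times under each scaled alternative that kept all libraries. The 2-week count of 1 became 4 with DESeq2, 3 with the replicate number as a block, 0 with the acinar covariate, 0 with only the libraries of that age, 4 at an adjusted p under 0.1, 0 without a scaling factor and 3 without the 10-week control libraries above 40% acinar counts. With a library left out the counts ran from 0 to 1 at 2 weeks, 14 to 29 at 10 weeks, 18 to 29 in the interaction, 6 to 10 with age in controls and 28 to 29 with age in IUGR islets. Without a scaling factor 1 gene passed at 10 weeks and 0 in the interaction, and Flt4 (0.043), Icam2 (0.0099), Eng (0.048), Clec14a (0.011) and Sox18 (0.032) turned positive. With the acinar covariate 11 genes passed with age in controls. The main fit did not pair libraries by replicate number, and these values do not settle whether the numbers mark a pairing. Correlations of same-numbered libraries ran from -0.19 to 0.52 over 18 pairs, with 8 over 0.1. Of 36 comparisons 18 were best with their own number. With the replicate number as a block 28 genes passed at 10 weeks. The causes were not tested.

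Over all transcripts, calls at 2 weeks went from 804 to 3212 with DESeq2, 149 without the filter, 1223 with the block, 0 with the covariate or with only the libraries of that age, 3021 at an adjusted p under 0.1, 16 without scaling, 1807 without the 10-week controls above 40% acinar counts, and 0 to 2350 with a library left out. At 10 weeks 5776 became 1951 with the covariate, 3472 with only the libraries of that age and 2971 with a library left out. In the interaction 2973 became 4767 with the covariate, 4735 at 0.1, 26 without scaling and 1759 to 4983 with a library left out. With age in controls 6693 became 3448 with only their libraries, 3419 without scaling, and 3690 and 3625 without controls above 40% acinar counts. With age in IUGR islets 11717 became 5055 without scaling. Among values passing in neither fit, 62 (of 34 gene and comparison pairs) differed in sign. With 3 libraries a group, small changes may be missed, and Apln has the fewest counts.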
